A study of Mus musculus with 10 samples.

Results

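CpG-dense promoters are usually free of DNA methylation, and a minority in these germ cell samples was not. The regions were chosen by the measured level: they are autosomal runs of at least 10 CpGs, each at most 100 b from the next, that reached into a window spanning 1 kb before and 100 b after a transcript start of GENCODE M21, and whose level averaged over all 10 samples was at least 50%. Of 9044 CpG-dense promoters on the autosomes, 420 (4.64%) met this rule, out of 119729 runs of at least 3 CpGs in the whole table. The level of a region in a sample is the number of methylated reads divided by all reads over its CpGs, in percent. Because the level chose the regions, their high level is a description and was not tested.

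The samples were 10 pools labelled as prospermatogonia, the germ cells of the fetal testis, and were profiled by reduced representation bisulfite sequencing (RRBS), which reads CpG-rich restriction fragments after unmethylated cytosine has been converted. The control group (n = 5) came from F1 fetuses of C3H/HeN dams given tap water, and the arsenic group (n = 5) from F1 fetuses of dams of the same strain given sodium arsenite in tap water during gestation. Late fetal testes of several embryos made up each pool, which is the replicate, and cells were sorted magnetically with an antibody to Thy1. Depth was similar in the 420 regions and elsewhere. Summed over its CpGs, the median region had 664 read counts per pool and the least covered had 110. A read that spans several CpGs is counted at each of them. If all counts were independent, 55 methylated of 110 would have a 95% Wilson interval of 40.8 to 59.2%, for counting error only. The counting error is larger where reads span several CpGs.

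Methylation of a CpG-dense promoter is a lasting mark of silence in body cells and is placed on few genes, among them many used only by germ cells. In the male germ line methylation is first erased from the whole genome and then laid down anew before birth, when gene bodies, intergenic DNA and retrotransposons fill up while most CpG-dense promoters are passed over. Promoters of germ cell genes and the maternally methylated imprinted promoters are generally free of methylation in fetal male germ cells, and are methylated, or methylated on one allele, in body cells.

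Stretches of 8 of the regions are shown first because the results turn on them. Fkbp6, Hormad1, Sycp2, Slc25a31 and Mael belong to fixed lists of germ cell genes, and Gm7027 had the smallest p in the comparison of the groups. Rps19-ps6 and Mir431 stand for pseudogene and microRNA starts and were chosen after their values were seen. Capitals mark CpGs that were read in all 10 pools. The windows lie within the regions, avoid annotated untranslated exon parts and were read from GRCm38 (mm10) on the strand of the gene.
Fkbp6 (chr5:135349799-135349978, strand -): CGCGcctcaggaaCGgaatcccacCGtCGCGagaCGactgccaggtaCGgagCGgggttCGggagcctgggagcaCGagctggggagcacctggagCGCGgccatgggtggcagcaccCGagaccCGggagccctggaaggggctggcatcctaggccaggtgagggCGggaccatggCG
Hormad1 (chr3:95559559-95559669, strand +): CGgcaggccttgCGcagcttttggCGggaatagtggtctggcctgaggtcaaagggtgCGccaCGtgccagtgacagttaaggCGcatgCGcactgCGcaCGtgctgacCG
Sycp2 (chr2:178407423-178407546, strand -): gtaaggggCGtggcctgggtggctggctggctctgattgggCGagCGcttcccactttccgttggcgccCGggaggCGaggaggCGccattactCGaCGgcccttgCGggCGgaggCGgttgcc
Slc25a31 (chr3:40708640-40708819, strand +): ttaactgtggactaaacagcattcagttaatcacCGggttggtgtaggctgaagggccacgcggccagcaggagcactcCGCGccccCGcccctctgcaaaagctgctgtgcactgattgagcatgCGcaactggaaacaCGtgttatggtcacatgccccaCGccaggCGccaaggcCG
Mael (chr1:166238466-166238645, strand -): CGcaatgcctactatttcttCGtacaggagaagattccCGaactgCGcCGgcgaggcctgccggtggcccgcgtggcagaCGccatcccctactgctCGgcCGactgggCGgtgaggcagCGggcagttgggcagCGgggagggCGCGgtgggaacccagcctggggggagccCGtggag
Gm7027 (chr7:101573873-101574052, strand -): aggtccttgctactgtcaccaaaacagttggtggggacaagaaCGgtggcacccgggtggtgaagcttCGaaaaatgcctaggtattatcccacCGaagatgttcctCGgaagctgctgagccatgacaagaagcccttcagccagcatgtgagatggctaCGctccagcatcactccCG
Rps19-ps6 (chr12:110898239-110898418, strand +): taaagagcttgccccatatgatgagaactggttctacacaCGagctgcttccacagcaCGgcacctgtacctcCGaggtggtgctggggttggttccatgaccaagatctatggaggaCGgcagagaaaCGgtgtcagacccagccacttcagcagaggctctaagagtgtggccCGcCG
Mir431 (chr12:109590383-109590553, strand +): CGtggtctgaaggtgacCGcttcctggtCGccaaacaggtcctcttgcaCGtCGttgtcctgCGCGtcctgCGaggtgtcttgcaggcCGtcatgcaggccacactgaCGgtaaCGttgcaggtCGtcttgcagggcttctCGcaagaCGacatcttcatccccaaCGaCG

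The CpGs in these windows were methylated along their whole length in the germ cell genes. In the Fkbp6 window the 17 CpGs read averaged from 56.9 to 73.0% over the pools, and in the Slc25a31 window the 9 CpGs read averaged from 53.8 to 74.4%. The Mir431 window was higher, at 80.8 to 95.9% for each of 16 CpGs. In the Gm7027 window, 1 of 6 CpGs was at 0% and another reached 70.8%. Across all 420 regions 28 of 5890 CpGs, in 19 regions, did not exceed 2% in any pool. A base difference between the C3H/HeN strain and the reference genome would also be read in this way, and its part was not tested.

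Most CpG-dense promoters had levels under 10%, a minority was methylated, and others lay at every level between. There were 8302 promoters under 10%, 128 from 10 to 20%, 77 from 20 to 30%, 54 from 30 to 40% and 63 from 40 to 50%. The next steps held 115 promoters from 50 to 60% and 146 from 60 to 70%. Among the 420 regions the median level was 65.4%, 71 were at 80% or more and 13 at 90% or more. The highest were the pseudogene Gm13408 (93.2%), the start region of the microRNAs Mir136, Mir432 and Mir434 (93.1%), the pseudogene Gm16335 (93.0%), Mir6977 (92.5%) and the pseudogene Gm7600 (91.6%).

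**Figure D1:**
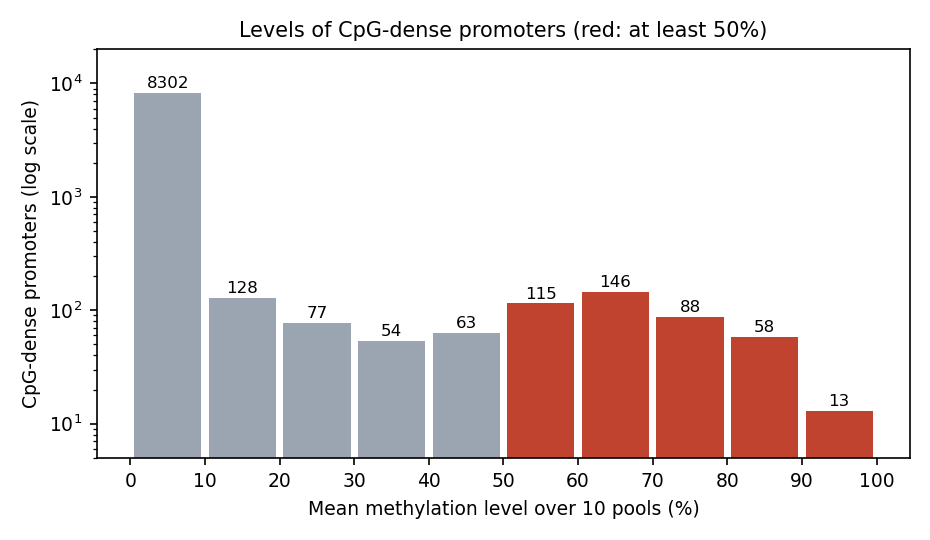
Number of CpG-dense autosomal promoters (log axis) by mean methylation level over the 10 pools, in steps of 10 percentage points. The red bars (115, 146, 88, 58 and 13 promoters) are the 420 regions described here, and 8302 promoters lay under 10%.

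The threshold cut through a continuous stretch of levels. Just inside it were Tapbp, which encodes tapasin of the antigen-loading complex (50.04%), Mir5125 (50.2%), Rps6ka1, a ribosomal S6 kinase (50.2%), 4933414I15Rik (50.4%) and Gm44408 (50.4%). Just outside were Dpm1, a subunit of dolichol-phosphate mannose synthase (49.7%), the pseudogenes Gm9299 (49.7%) and Gm7390 (49.2%), A430078G23Rik (49.6%), and the start region shared by Frmd8os, Gm27505 and Gm27533 (49.5%). In all, 194 promoters had levels from 20 to 50% and 8430 were under 20%.

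The most common starts at or near the regions were those of pseudogenes, gene copies that no longer encode a working protein. They accounted for 174 of the 420 regions (41.4%), against 71 of the 8430 promoters under 20% (0.842%). A promoter with starts of several kinds was counted once, in the order protein-coding, pseudogene, small RNA, long non-coding RNA. A pseudogene start in the same run as a protein-coding start was therefore counted as protein-coding. Counted in this way, 63.5% of 274 CpG-dense promoters of pseudogenes were methylated. The share was 1.52% of 7711 protein-coding, 25.6% of 164 small RNA and 9.72% of 895 long non-coding RNA promoters. Protein-coding starts accounted for 117 regions, long non-coding RNA starts for 87 and small RNA starts for 42. An annotated start lay inside 199 of the 420 regions (47.4%), 99 of the pseudogene regions (56.9%) and 44.0% of promoters under 20%. The others only reached into the window around a start. Of the pseudogene regions 168 of 174 overlapped a processed pseudogene, that is, a copy of a spliced transcript put back into the genome by reverse transcription. Such a copy has no promoter of its own, and its annotated start is the beginning of the copied sequence.

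A total of 23 pseudogene symbols in the regions are a gene name with the ending ps, and 12 of these name a ribosomal protein gene. The gene so named was taken as the parent, which was not checked by sequence. For Tmem181c-ps and Umpk-ps the annotation held no protein-coding gene of that name. For 11 of the copies the parent gene had a CpG-dense promoter in the table. The regions of the copies lay at 55.0 to 90.3% (median 70.9%), and the promoters of their 10 parents at 0.480 to 2.47%. Only copies in regions at 50% or more entered, so the high side of this gap was fixed in advance. Copies with less methylation were left out. The regions of Pisd-ps1, Rbx1-ps, Rpl35a-ps5, Rps13-ps4, Rps19-ps6 and Rps26-ps1 contained no annotated start. Such a region may lie partly or wholly outside the copied sequence, which was not checked for each copy. A processed copy also lacks the promoter of its parent, so copy and parent were not compared over the same stretch of sequence. Rps13-ps4 (chr8:119602694-119603206) averaged 90.3%, with pools from 85.8 to 94.4%, whereas the CpG-dense promoters of Rps13 were at 0.518 and 2.47%. Rps19, a gene of the small ribosomal subunit, had a promoter at 0.509%, and its copies Rps19-ps6 and Rps19-ps5 lay at 83.4 and 70.9%. Oaz2-ps, a copy of an ornithine decarboxylase antizyme gene, was the lowest of these copies at 55.0%, and the Oaz2 promoter was at 1.03%. A copy of cyclin B1, Ccnb1-ps, shared its region with a start of Vmn2r60 and averaged 55.8%, against 0.887% at Ccnb1. The lowest value of a single pool among the 11 copies was 40.3%, at Oaz2-ps. Copies share sequence with their parents and with each other, and whether each read was placed on the right copy was not tested.

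**Figure D2:**
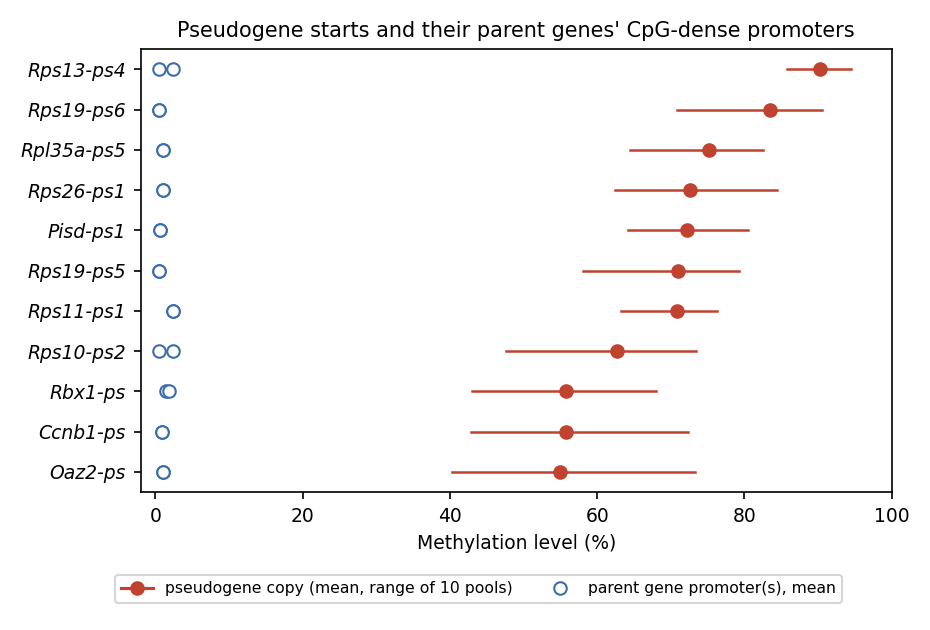
Methylation level (%) of 11 pseudogene start regions (red, mean and range of the 10 pools) and mean level of the CpG-dense promoters of the genes they are named after (open blue circles). The regions of the copies, not all of which contain an annotated start, lie between 55.0 and 90.3%, and every parent promoter shown is at 2.47% or lower. Only copies in regions at 50% or more were included, so the high side of the gap was fixed in advance.

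Genes of the germ line were looked up by fixed lists and accounted for 16 of the 117 protein-coding regions. Lists of germline promoters known to be methylated in body cells, of meiosis genes and of piRNA pathway genes held 111 genes, of which 29 had a CpG-dense promoter in the table and 16 were among the 420 regions, 11 were under 20% and 2 lay between. On the germline list 13 of 17 genes with such a promoter were methylated, on the meiosis list 3 of 10 and on the piRNA list 4 of 8. The 4 piRNA genes are also on the germline list. Over all CpG-dense protein-coding promoters the share was 1.52%. Since the lists were drawn up with earlier results of these data known, the shares are descriptive.

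The piRNA pathway silences retrotransposons in fetal male germ cells. Mael encodes a protein of germ granules that this pathway needs, and its region (chr1:166238437-166238712, just downstream of the start, 23 CpGs) was at 60.03, 62.9, 66.2, 71.0 and 64.0% in control pools 1 to 5 and at 39.0, 65.6, 65.7, 73.3 and 80.6% in arsenic pools 1 to 5. Fkbp6 encodes a co-chaperone of the same pathway, and its region over the start (chr5:135349710-135350024, 24 CpGs) was at 68.8, 56.5, 67.5, 65.8 and 75.5% in control pools and 40.6, 68.9, 74.5, 77.0 and 86.8% in arsenic pools. In both regions arsenic pool 1 was the lowest of all 10 and arsenic pool 5 the highest, with the controls between them. Ddx4, the germ cell RNA helicase vasa (chr13:112652403-112652503, over the start, 16 CpGs), was at 57.4 to 73.7% in control pools and 54.2 to 77.9% in arsenic pools. Rnf17, a tudor protein of germ cell granules (chr14:56402622-56402815), was at 42.9 to 61.8 and 44.6 to 71.8%. In none of the 4 genes did the groups separate, and the adjusted p by limma was 0.983 for Mael, 0.916 for Fkbp6, 0.975 for Ddx4 and 0.922 for Rnf17.

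Among meiosis genes, Sycp2 encodes a component of the lateral elements of the synaptonemal complex. Its region inside the gene (chr2:178407285-178407638, 29 CpGs) was at 73.7, 48.1, 56.7, 56.4 and 61.9% in control pools and 30.6, 57.5, 72.8, 68.0 and 79.3% in arsenic pools. The spread within the arsenic group covered the whole range of the controls, and limma gave an adjusted p of 0.956. Hormad1, which marks unsynapsed chromosome axes (chr3:95559559-95559669), was at 49.8 to 74.6% and 52.8 to 88.0% in the control and arsenic groups. Msh4, which acts in meiotic crossing over (chr3:153905720-153905997, upstream of 1 annotated start and over coding sequence of Msh4 itself), was at 35.6 to 61.8% and 28.7 to 73.2%. Of the 7 other meiosis genes with a CpG-dense promoter, 5 (Prdm9, Stag3, Cntd1, Psmc3ip and Sgo2a) were at 0.550 to 1.32%, Meioc was at 28.5% and Hormad2 at 42.6%.

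Dazl, which encodes a germ cell RNA-binding protein and had the most CpGs of all regions (54), was methylated over part of its length only. Over the first 500 b downstream of the start 35 CpGs lay at high levels, and over the following stretch to 700 b 19 CpGs were nearly unmethylated. The first part (chr17:50293148-50293616) was at 73.4, 59.0, 64.8, 69.8 and 62.8% in control pools and 56.7, 55.8, 62.4, 65.9 and 86.6% in arsenic pools. The second part (chr17:50292975-50293130) did not exceed 2.81% in any control pool or 3.57% in any arsenic pool. The mean of 52.0% for the whole run therefore describes neither part. The boundary was chosen after the values were seen. Dazl was an exception in this respect, since 369 of the 420 regions had no CpG averaging under 20% and in 234 every CpG averaged 50% or more.

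The other germline genes with methylated regions were Tex14, which is needed for the bridges between germ cells and shares its region with a start of the repair gene Rad51c (65.1%), Slc25a31, a germ cell ATP/ADP carrier (67.5%), Zfp42, known as Rex1 (57.6%), Tex101 (57.2%), D1Pas1, a retrocopy of the helicase Ddx3x (63.9%), Rpl10l, a retrocopy of a ribosomal protein gene (67.5%), and the testis tubulins Tuba3a (61.7%) and Tuba3b (69.9%). Tuba3b had the largest group difference among the 16, and was at 65.4, 68.0, 65.2, 71.6 and 56.9% in control pools and 58.4, 69.7, 79.2, 76.2 and 88.0% in arsenic pools. The groups overlapped, and the difference of 8.92 percentage points had an adjusted p of 0.742 by limma. The 4 genes of the germline list with CpG-dense promoters under 50% were Tdrd5 (1.15%), Cpeb1 (1.55%), Prdm14 (2.06%) and Tdrd6 (16.0%).

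**Figure D3:**
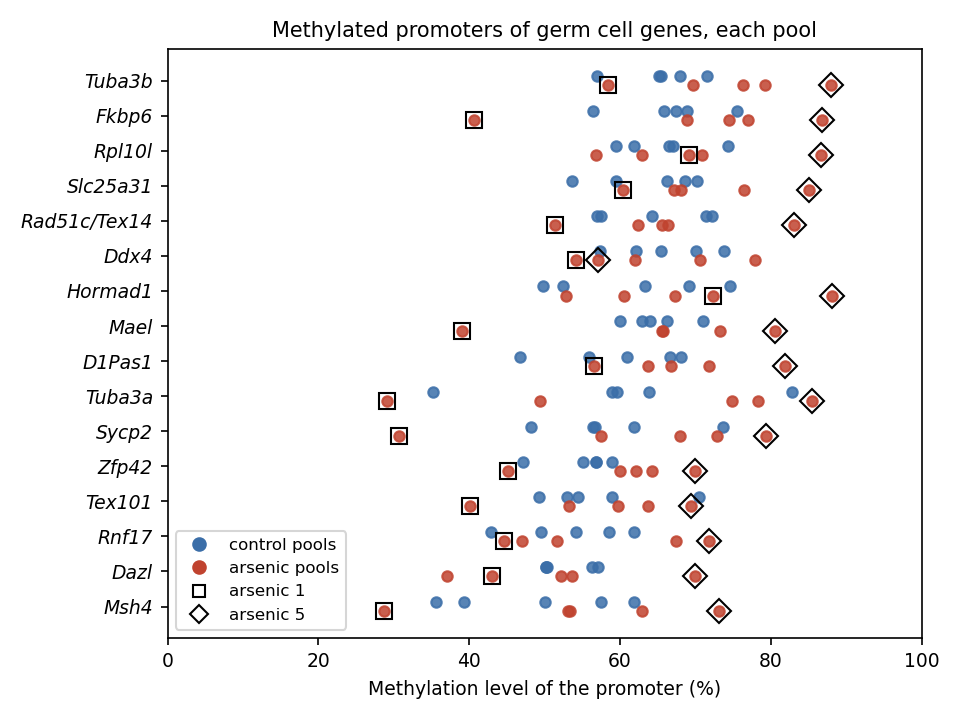
Methylation level (%) of the 16 methylated CpG-dense promoters of listed germ cell genes in each of the 5 control (blue) and 5 arsenic (red) pools, with arsenic 1 (square) and arsenic 5 (diamond) outlined. Arsenic 5 is the highest of the 10 pools at 14 of the 16 genes and arsenic 1 the lowest at 9.

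These values go against what is generally found at such promoters in fetal male germ cells. Promoters of genes on a list of maternally methylated imprints, used as a second check of the label, stood in between. Of 14 genes with a CpG-dense promoter only Fkbp6, which is on both lists, was at 50% or more, and the others ranged from 0.442% at Grb10 to 45.4% at Mcts2, with Snrpn at 33.1%, Peg10 at 37.7% and Igf2r at 12.3%. Runs were matched to the maternal list by gene symbol, and Gnas had runs at 0.878 and 39.0%. Whether each run is the maternally methylated promoter of its gene was not checked, which limits this use of the list. The mean over the 13 runs of that list without Fkbp6 was 22.5 ± 2.30% (SD, n = 5) in the control group and 24.95 ± 5.17% in arsenic pools, lowest in arsenic pool 1 (16.6%) and highest in arsenic pool 5 (30.8%). On the list of paternally methylated loci 4 genes had a CpG-dense promoter. Their runs were also matched by symbol and lie near gene starts, and the paternally methylated regions themselves were not looked up. None of the 4 genes reached 50% at these runs, and Meg3 was highest at 28.5%. Neither did any of 5 genes of somatic testis cells. Sox9 (0.855 and 0.938% at its runs), Gata4 (0.952%), Nr2f2 (1.23 and 2.15%) and Nr5a1 (1.58%), transcription factors of these cells, were low, and Fshr, the Sertoli cell receptor for follicle-stimulating hormone, was at 48.8%. The same held for 5 DNA methylation enzymes, which were at 0.936 to 2.30%. Whether cells other than germ cells contributed to the pools was not tested.

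Some protein-coding genes in the regions had another promoter with little methylation. Of 121 protein-coding genes 21 also had a CpG-dense promoter under 20%, with a median of 1.15% against 66.9% at the methylated region. Both sides were chosen by their level, so a gap between them was fixed in advance. The pairs lay from 524 b to 364353 b apart (median 5066 b). Ptpn14, a phosphatase of the Hippo pathway, was at 79.0% (chr1:189786641-189787135) and at 0.817% at its other promoter 59091 b away. Anpep, the aminopeptidase CD13, was at 82.4% in a region almost wholly inside coding sequence and at 0.906% at the other start 6229 b away. Slc30a3, a vesicular zinc transporter (68.8% against 0.911%), Psd, an exchange factor for ARF6 (53.8% against 2.77%), and Ttc41 (79.3% against 0.510%) completed the 5 with most CpGs. The start that carries methylation in such a gene is one of several annotated starts, and which start was in use was not measured.

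Methylated small RNA starts were mostly those of microRNAs (32 of 42 regions). The annotated start of a microRNA is the end of its precursor and not a transcription start, so these regions often lie inside a longer host transcript. The region of Mir136, Mir432 and Mir434 (chr12:109594126-109594680, 22 CpGs) was at 91.2 to 96.1% in control pools and 89.9 to 96.0% in arsenic pools, and the nearby Mir431 region (chr12:109590383-109590553) averaged 90.4%. Both belong to the imprinted Dlk1-Meg3 cluster. Mir26a-1, which lies in an intron of a phosphatase gene, averaged 69.97%. Mir7023 (31 CpGs, 85.02%) and Mir6910 (30 CpGs, 75.4%) were among the regions with most CpGs, along with 1600002K03Rik (42 CpGs, 67.7%) and Gm37912 (30 CpGs, 74.7%). Of the 42 small RNA regions 21 (50%) overlapped coding sequence of some gene, compared with 24.8% of all 420 regions. The share was similar in protein-coding regions (48.7%), and it was 24.1% in long non-coding RNA and 2.87% in pseudogene regions.

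In base composition the regions lay closer to methylated CpG-dense DNA elsewhere than to promoters under 20%, and in repeat content they lay between. Median GC content was 54.6% in the 420 regions, 54.8% in 5742 methylated CpG-dense runs away from starts and 64.2% in promoters under 20%. The ratio of observed to expected CpGs had medians of 0.692, 0.630 and 0.876 in the same order, and the number of CpGs in a run 12, 12 and 16. The 16 regions of germ cell genes differed from the other regions in these features, with medians of 63.4% GC, a ratio of 0.777 and 16 CpGs. More than 50% of the bases were soft-masked repeats in 14.0% of the 420 regions, 32.8% of the runs away from starts and 0.510% of promoters under 20%.

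Methylation of a region usually extended into its surroundings. Of 147 regions with at least 5 CpGs in the table within 2 kb outside the run 70.7% had flanks averaging 50% or more, against 3.48% of promoters under 20% and 86.0% of runs away from starts. The share was 86.8% for 38 pseudogene regions and 53.3% for 60 protein-coding regions. By distance from the nearest start, bins of 100 b from 1000 b upstream to 500 b downstream averaged 65.8 to 72.4%, among them 66.6% over the 931 CpGs up to 100 b upstream, 68.0% over the 1166 CpGs up to 100 b downstream and 67.2% over the 180 CpGs in the 100 b farthest upstream. The 44 CpGs from 500 to 600 b downstream, 10 of them in the unmethylated part of Dazl, averaged 51.3%. The rule of at least 50% per region limits how low such averages can be.

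Letters of 5 known binding sites were searched on both strands in 300 b around the centre of each region. The GC box GGGCGG was found in 17.4% of the 420 regions, 57.6% of all CpG-dense promoters and 60.1% of those under 20%. The E2F6-type letters TCCCGC, associated with silencing of germ cell genes, were found in 17.1% of the regions and 39.3% of all CpG-dense promoters, but in 10 of the 16 regions of germ cell genes (62.5%). These included Fkbp6, Hormad1, Slc25a31 and Ddx4 but not Mael, Sycp2 or Dazl. The E-box CACGTG was in 7.14% of regions and 8.08% of all CpG-dense promoters, and in 4 of the 16 germ cell genes, among them Hormad1 and Slc25a31. The NRF1-type letters TGCGCA was in 8.33 and 10.9%, and the Ets-type letters CCGGAAGT were in 4.52 and 4.92%. The 16 germ cell regions held the GC box in 43.8% and the NRF1-type letters in 25% of cases, and 46.2% of the 13 runs of the maternal imprint list held the E2F6-type letters. Whether GC content, which was also higher in these sets, had a part in the shares was not tested.

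The control pools were close to each other in their mean over the 420 regions, and the arsenic pools were not. The mean was 67.3, 65.5, 66.2, 67.2 and 67.8% in control pools 1 to 5, and 59.2, 67.6, 68.3, 71.9 and 77.0% in arsenic pools 1 to 5. Arsenic pool 1 was below all controls, and arsenic pools 3, 4 and 5 were above them. The SD between pools was 0.917 percentage points among controls and 6.52 among arsenic pools. At promoters under 20% the control pools averaged 1.41 to 1.55%, and arsenic pools 1 to 5 averaged 1.43, 1.39, 1.68, 1.59 and 1.57%. Bisulfite conversion of the pools was not tested.

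Arsenic pool 5 was the highest of the 10 pools in 207 of the 420 regions (49.3%) and arsenic pool 1 the lowest in 180 (42.9%). In the 5742 methylated runs away from starts the shares were 34.6 and 36.8%. The excess of pool 5 over pool 1 was largest at intermediate levels. For regions at 60 to 70% the median difference between these pools was 23.3 percentage points, against 16.7 in runs away from starts of the same level, and for regions at 80 to 90% it was 4.65 against 4.64. By group of genes, the distance between the lowest and the highest pool mean was 30.8 percentage points for the 16 germ cell genes (47.7% in arsenic 1, 78.5% in arsenic 5), 19.6 for pseudogenes, 19.25 for protein-coding starts, 14.8 for long non-coding RNA starts and 12.3 for small RNA starts. Whether the makeup of the pools contributed was not tested.

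**Figure D4:**
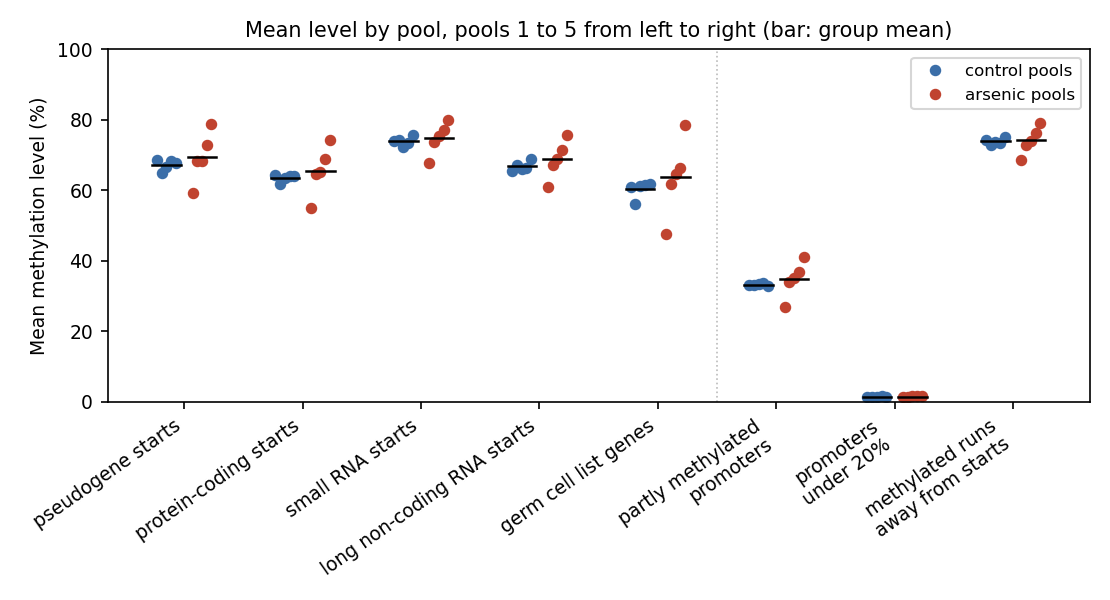
Mean methylation level (%) of sets of regions in each pool (control blue, arsenic red, pools 1 to 5 from left to right, bar at the group mean). Left of the dotted line are the methylated promoters by kind of start, and right of it 3 comparison sets. The arsenic pools spread from 47.7 to 78.5% at germ cell genes and from 1.39 to 1.68% at promoters under 20%.

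Single regions varied in the control group too. The range over the 5 control pools was smallest at Gm10800 (78.1 to 78.9%), Gm45285 (89.9 to 91.0%), Rps12-ps5 (87.8 to 90.02%), Mup21 (71.6 to 73.9%) and Gm32743 (82.8 to 85.3%). Gm10800 consists of repeats over 97.7% of its bases and had 14776 reads per CpG and pool, the only region above 200, and reads of several copies may have been placed there, which was not tested. The range was largest at 4921523L03Rik (25.7 to 92.4%), Bmpr1b, a receptor for bone morphogenetic proteins (14.0 to 72.8%), Tuba3a (35.1 to 82.7%), Gm5829 (36.0 to 82.8%) and Gm9923 (40.2 to 85.4%). The median range was 13.7 percentage points, against 10.4 in runs away from starts and 1.56 in promoters under 20%. At like levels the regions and the runs away from starts were closer, with 15.3 against 14.6 at 50 to 60%, 8.52 against 7.90 at 80 to 90% and 5.43 against 5.44 at 90% or more.

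No region passed the test for a difference between the groups. limma was fitted to log2(methylated/unmethylated reads) in all 119729 runs, and calling a region required 10 or more percentage points between the groups and, after Benjamini-Hochberg adjustment, p under 0.05. Of the 420 regions 0 were called, of all runs 0 (0%), and the smallest adjusted p among the 420 was 0.708. Before adjustment, 12 regions with p under 0.05 were higher in the arsenic group (2.86%) against 2.11% of all runs, and 4 lower (0.952%) against 4.82% of all runs. Of all CpG-dense promoters 4.33% were higher and 3.20% lower, and of methylated runs away from starts 2.12 and 2.12%. With the fit limited to runs of at least 10 CpGs, 2.14% of the regions were higher, against 3.04% of those runs. In that fit 0.476% of the regions were lower, against 2.50%. The counts in the 420 regions depended on single pools. Without arsenic pool 1 they were 50 (11.9%, against 3.85% of all runs) and 3 (0.714%, against 3.49%). Without arsenic pool 5 they were 6 (1.43%, against 1.58%) and 5 (1.19%, against 4.55%). With control pool 3 left out they were 6 (1.43%, against 2.04%) and 3 (0.714%, against 4.82%). With arsenic pool 4 left out they were 7 (1.67%, against 1.69%) and 5 (1.19%, against 4.26%). The lower count was 2 (0.476%) without control pool 5, against 4.42% of all runs, or arsenic pool 3, against 5.68%. A quasi-binomial F test on summed reads also gave 0 calls, and before adjustment 12 regions were higher (2.86%, against 1.92% of all runs) and 11 lower (2.62%, against 5.55%). The pools of the groups did not overlap in 3 regions that were higher in the arsenic group (0.714%) against 0.323% of all runs, and in 3 that were lower (0.714%) against 1.00%. The shares without overlap were 0.542% higher and 0.365% lower in all CpG-dense promoters. In methylated runs away from starts they were 0.522 and 0.766%.

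The differences leaned upward over the regions, and the size and direction of the median depended on which arsenic pools entered. The median difference of arsenic minus control was 1.63 percentage points over the 420 regions, with 264 higher in the arsenic group, 0.0643 over all CpG-dense promoters and -0.42 over all runs. Without arsenic pool 5 the median over the 420 regions was -0.24, without arsenic pool 1 it was 4.07, and without both it was 2.10. Among the 16 germ cell genes 14 were higher in the arsenic group, with a median of 3.24, which was -0.81 without arsenic pool 5, 7.80 without arsenic pool 1 and 5.51 without both. None of the 16 reached an unadjusted p under 0.05.

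The region with the smallest p was Gm7027, a processed pseudogene (chr7:101573873-101574249, exonic, 12 CpGs). It was at 56.8, 46.4, 52.7, 46.2 and 59.0% in control pools and 59.1, 70.2, 63.9, 73.1 and 76.4% in arsenic pools. The groups did not overlap, but the lowest arsenic pool was almost level with the highest control pool. The difference was 16.3 percentage points, with p = 0.00398 and an adjusted p of 0.708 by limma, and the exact permutation test gave p = 0.00794, the smallest it can give.

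Mup21, a gene of the major urinary protein family (chr4:62151793-62152195, upstream of the start, 85.9% soft-masked repeat, 12 CpGs), was at 73.3, 73.5, 73.9, 73.6 and 71.6% in control pools and 81.1, 80.9, 86.9, 80.1 and 82.0% in arsenic pools. The groups did not overlap, and the spread within each was smaller than the difference of 9.01 percentage points. The adjusted p was 0.708 by limma, with an exact permutation p of 0.00794. The next in this direction were the long non-coding RNAs Gm3961 (59.0 ± 7.84% in the control and 74.2 ± 9.06% in the arsenic group, SD, n = 5) and Gm39318 (50.9 ± 8.28 and 65.7 ± 7.48%), and CN725425 (49.6 ± 3.50 and 65.4 ± 12.5%), and in all 3 the groups overlapped. The remaining region without overlap in this direction, named after its values were seen, was the long non-coding RNA 4933416M07Rik (46.7 ± 1.57 and 55.7 ± 4.10%).

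In the other direction, 1 of the 2 regions of Arhgef10l, a guanine nucleotide exchange factor gene (chr4:140665444-140666005, 20 CpGs), was at 76.2, 75.4, 79.4, 78.1 and 77.0% in control pools and 68.5, 68.6, 70.2, 69.3 and 72.3% in arsenic pools. The groups did not overlap and both were tight. The difference was -7.43 percentage points with an adjusted p of 0.708 by limma and an exact permutation p of 0.00794. Ssh1, which encodes the cofilin phosphatase slingshot (chr5:113989464-113989756, over 1 of its starts, with another promoter of the gene at 1.73%), was at 89.5 ± 1.67% in the control and 84.0 ± 3.11% in the arsenic group without overlap. Arhgef2, also an exchange factor gene, was at 58.9 ± 1.68 and 51.9 ± 2.64% without overlap. Clcn7, a lysosomal chloride transporter (90.7 ± 1.79 and 86.2 ± 3.89%), and the predicted microRNA Gm25540 (73.3 ± 4.79 and 65.9 ± 1.79%) overlapped between groups. With 119729 runs tested, none of these 10 regions passed the adjusted threshold.

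**Figure D5:**
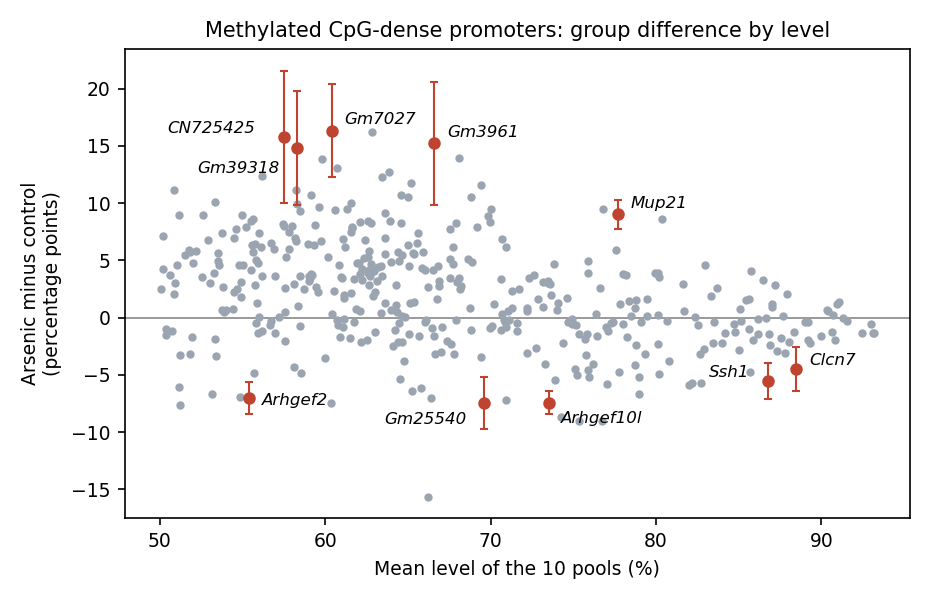
Difference of arsenic minus control (percentage points) against mean level (%) for the 420 regions, with the 5 smallest limma p in each direction in red (bars are the standard error of the difference of 5 and 5 pools). Gm7027 is the highest at 16.3 points, and no region passed the adjusted threshold.

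The largest drop among the 420 regions was at Tenm3, which encodes a teneurin of neurons, where arsenic pool 1 stood far below the other pools. Tenm3 was at 86.1, 68.9, 72.7, 81.5 and 61.0% in control pools and 16.1, 50.9, 69.1, 81.1 and 74.8% in arsenic pools, and was picked out after its values were seen. The difference of -15.63 percentage points had an unadjusted p of 0.167 by limma.

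By single cytosines, the study's own type of test called more differences. Differentially methylated cytosines (DMCs) were called by logistic regression on pooled reads at q of at most 0.01 and at least 10 percentage points, so the spread between pools did not enter the test. Of 8080 cytosines in the regions 214 were hyperDMCs (2.65%, against 0.784% of all cytosines) and 66 were hypoDMCs (0.817%, against 1.48%). In methylated runs away from starts the shares were 1.86 and 1.36%. Arsenic pool 5 was the highest pool at 117 of the 214 hyperDMCs and arsenic pool 1 the lowest at 33 of the 66 hypoDMCs. The pools of the groups did not overlap at 20 hyperDMCs (9.35%, against 12.6% of all hyperDMCs) and 10 hypoDMCs (15.2%, against 15.6% of all hypoDMCs). DMCs lay in 135 of the 420 regions (32.1%, against 33.1% of the runs away from starts). HyperDMCs lay in 97 (23.1%, against 17.96%) and hypoDMCs in 47 (11.2%, against 16.8%), and 9 regions had both. Gm7027 held 6 hyperDMCs among 12 cytosines and Mup21 2 among 12, and Ssh1 held 4 hypoDMCs among 22. With an overdispersion factor and an F test, or with limma per CpG, there were 0 DMCs in the regions. Without arsenic pool 5 the balance turned, with 72 hyperDMCs and 98 hypoDMCs, and without arsenic pool 1 there were 513 and 48. In these settings DMCs were counted in the regions only, so no share of all cytosines is given.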

How the data were processed

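The authors deposited 1 table of methylated and unmethylated read counts for 1348062 CpG cytosines covered by at least 10 reads in each of the 10 pools. According to the submitters' processing notes, Trim Galore 0.6.5, Bismark 0.22.3 and methylKit 1.22.0 were used with mm10. Treatment of duplicate reads was not given in the sources used here, and the authors left out a shallow arsenic sample. Calls per pool summed to 44207245 to 66570870.

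Counts of both strands were added per CpG, and CpGs at most 100 b apart were joined into runs. Runs with at least 10 CpGs near a GENCODE M21 basic start and a mean level of at least 50% were the regions. Starts, genes and sequence came from GRCm38. For a group difference, log2((methylated + 1) / (unmethylated + 1)) was fitted in all 119729 runs of at least 3 CpGs with limma 3.58.1 (R 4.3.3) and adjusted by Benjamini-Hochberg, and two-sided exact permutation tests were run for the named regions. DMCs were called by logistic regression on group sums, the study's method. The calculations were tested on simulated data and run in Python 3.11.15 with numpy 2.4.6, scipy 1.17.1, pandas 2.3.3 and matplotlib 3.10.9.

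The regions and gene lists were chosen with earlier results of these data known. Regions were named if on a gene list, among the 5 smallest limma p in each direction, the 5 highest levels, the 5 levels on each side of the threshold, the 5 smallest or largest control ranges or the 5 with most CpGs, and, for genes with a second promoter under 20%, the 5 with most CpGs. Alternatives were other gaps, CpG and read minimums, levels, annotations, tests and leaving out each pool. P-values of limma, the F test and the permutation test rest on the spread between pools, and the q-values of the logistic regression do not.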

Additional observations from a re-analysis of the deposited data

Results flagged for a closer look

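In 122 groups of 5 pools, 6 had a lowest or highest pool set apart from the others by Dixon's criterion, and chance gives about 1 in 20 such groups, or 6.1 here. The mean over the 16 germ cell genes was 56.2% in control pool 2, against 60.8 to 61.8% in the other control pools. Mup21 was at 71.6% in control pool 5, against 73.3 to 73.9% in the other controls, and at 86.9% in arsenic pool 3, against 80.1 to 82.0% in the other arsenic pools. Gm3961 was at 45.5% in control pool 2, against 60.1 to 65.5% in the other controls. Gm9923 was at 22.2% in arsenic pool 1, against 68.0 to 78.6% in the other arsenic pools, and Mir7023 was at 77.3% there, against 84.7 to 85.8%.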

How the results depend on the processing

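The number of methylated CpG-dense promoters was 1598 with at least 5 CpGs, 43 with at least 20 CpGs, 179 with gaps of at most 50 b, 135 with at least 20 reads per CpG, 71 at a level of 80%, 116 with protein-coding starts alone and, chosen after seeing the data, 696 with the comprehensive annotation. It was 405 to 424 when each pool was left out in turn. Leaving out CpGs at or under 2% in every pool, also chosen after seeing the data, gave 415. No region was called in any setting of the group comparison. The median difference over the regions was -0.24 to 4.07 percentage points when each pool was left out, lowest without arsenic pool 5 and highest without arsenic pool 1, and that over the germ cell genes, tried after seeing the data, was -0.81 to 7.80 with the same pools left out. Leaving out both pools together was likewise tried after seeing the data. HyperDMCs numbered 72 to 513 and hypoDMCs 48 to 98 when each pool was left out, 83 and 23 at a difference of at least 20 percentage points, and 0 and 0 with limma per CpG or with an overdispersion factor and F test. With at least 20 reads in every pool there were 42 hypoDMCs. DMCs of all cytosines were not counted in these settings. The cause of these changes was not tested. The adjusted p of the 10 regions named for their p was 0.594 to 0.858 over 15 settings each by limma or the quasi-binomial F test. Their direction is no sign of stability, since it was used to choose them.

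The pools of both groups carry the same replicate numbers. Deviations of same-numbered pools correlated at -0.0127 to 0.0331, and 1 of 5 numbers correlated best with its own, so the numbers were not taken as pairs. With a replicate block 0 regions were called, with a smallest adjusted p of 0.776 by limma.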
